A study of Papilio machaon with 10 samples.

Results

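The change from the final instar larva to the pupa was examined in 3 of the 10 libraries of Papilio machaon, the Old World swallowtail: a female pupa and a male pupa, each set against the fifth instar larva (L5). Each library was made from poly-A RNA of the whole body of a single individual, and the sex of the L5 larva is not given. The labels name no treatment, no allele and no age within a stage, and larvae of the species were fed on fennel or carrot. The 7 other libraries were the egg (10 eggs pooled), L1 (10 larvae pooled), L2 (5 larvae pooled), L3, L4, a female adult and a male adult. Of these, the adults entered the test below for its spread. Genes entered where the mean RPKM over L5 and both pupae was at least 1, which kept 13424 of the 15285 genes in the table. For each gene the level, log2(RPKM + 1), of each pupa was compared with that of L5, and where both pupae lay on the same side of L5 the smaller of the 2 differences was taken as the size of the change.

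Butterflies are holometabolous insects, in which the feeding larva and the flying adult are separate body plans joined by a pupa that does not feed. Before pupation the larva stops eating, and pulses of the steroid hormone ecdysone in the absence of juvenile hormone switch the moult from larval to pupal. In the pupa, larval tissues such as the midgut and many muscles are broken down and rebuilt, imaginal discs form wings, legs and antennae, and a new cuticle is laid down. The table lists genes by locus tag alone, and the reference gene table used here held 0 of these tags. No gene could therefore be assigned a name, a product, a position or a sequence, the tissue of the libraries could not be checked against marker genes, and the genes are described by their levels. In whole-body RNA, fewer cells of a type and less RNA per cell cannot be told apart.

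The L5 library was the shallowest, with 23239554 reads on genes, against 26999933 in the female pupa and 32077629 in the male pupa. It also had the fewest genes at an RPKM of at least 1, with 12158 in the female pupa and 13210 in the male pupa against 11270 in L5. Reads were less concentrated in pupae, where the leading 10 genes held 11.6% of them in the female and 11.3% in the male, against 18.1% in L5. The typical gene had a higher RPKM in pupae than in L5: the median difference over the 13424 genes was 0.88 for the female pupa and 0.82 for the male pupa on the log2 scale. Among all 10 libraries, L5 had the lowest median level of these genes, 3.10, while the others lay between 3.48 and 3.99. The female adult and the egg, with 21.5% and 18.8% of the reads in their leading 10 genes, had higher medians than L5, 3.48 and 3.62. The parts of depth and of the concentration of reads in this general shift were not tested. The counts of higher and lower genes below vary with the shift.

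Both pupae lay above L5 for 8869 genes and below it for 2458, and they took opposite sides or no side for the remaining 2097. A difference of at least 2 on the log2 scale in both pupae, which is 4-fold on RPKM + 1, was found for 2205 genes. Of these, 1284 were higher in both pupae (9.56% of the genes tested) and 921 were lower in both (6.86%). With the differences centred on the median gene, so that the general shift was taken out, 545 genes were higher and 1344 lower, and with each library scaled to its 75th percentile 882 were higher and 1117 lower. Which direction held more genes thus depended on the scaling. The smallest sizes inside the 4-fold limit were 2.0004 among higher and -2.0042 among lower genes, and the largest outside it were 1.9986 and -1.9994. These counts rest on a fold alone and are descriptions with no test.

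**Figure D1:**
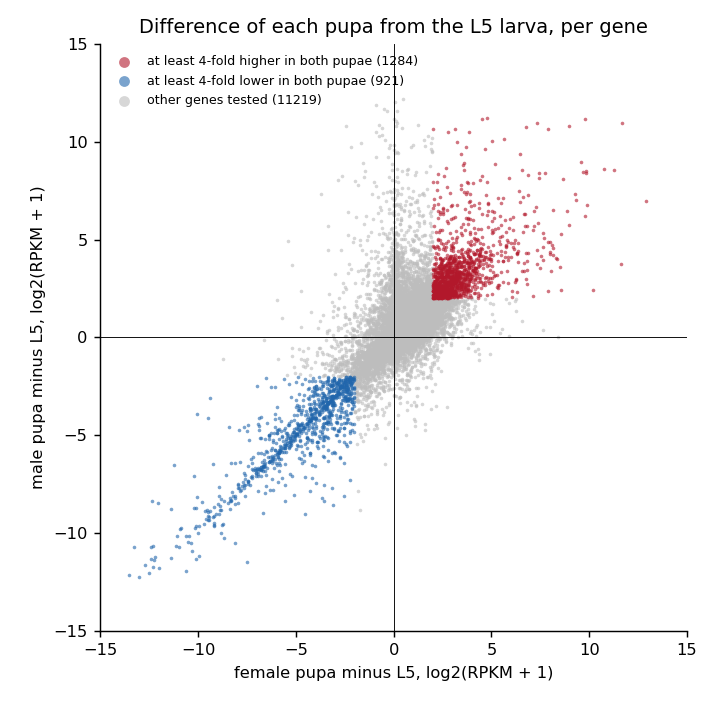
Difference of the female pupa (x axis) and of the male pupa (y axis) from L5 in log2(RPKM + 1), with 1 point for each of the 13424 genes. Among genes at least 4-fold higher in both pupae (1284, red) the smaller difference is up to 10.95. Among genes at least 4-fold lower in both (921, blue) it is up to 12.24 in size. Centring on the median gene turns the counts to 545 higher and 1344 lower.

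Large changes were mostly losses. Between 4-fold and 8-fold, 820 genes were higher and 310 lower in both pupae, and between 8-fold and 16-fold 291 were higher and 206 lower. From 16-fold upwards the order turned, with 173 higher and 405 lower, and from 64-fold upwards there were 35 higher and 174 lower. At 256-fold or more, 10 genes were higher and 77 were lower. Losses also outnumbered gains at these sizes after centring, with 19 genes higher and 246 lower from 64-fold upwards. The pseudocount of 1 limits the size of changes for low genes, and the size classes were not repeated with 0.1. With a pseudocount of 0.1, 2168 genes were at least 4-fold higher in both pupae and 994 lower.

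**Figure D2:**
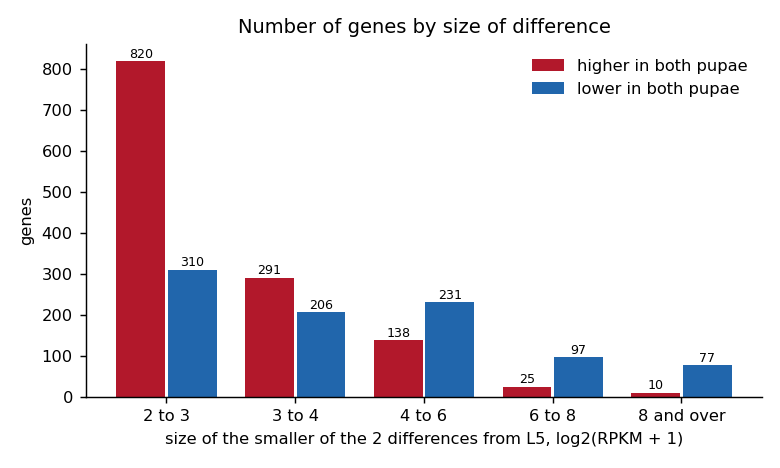
Number of genes (y axis) by the size of the smaller of the 2 differences from L5 in log2(RPKM + 1) (x axis), for genes higher (red) and lower (blue) in both pupae. Higher genes outnumber lower ones 820 to 310 in the smallest class, and lower genes outnumber higher ones 77 to 10 in the largest. After centring on the median gene the totals are 545 higher and 1344 lower.

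The share of reads that these genes took is given here as a description, since L5 and the pupae chose them. The 921 lower genes took 1.36% of the reads on genes in the female pupa and 1.15% in the male pupa, against 39.9% in L5. The 1284 higher genes took 14.8% in the female pupa and 15.2% in the male pupa, against 0.479% in L5. Their median level was 4.66 in the female pupa and 4.70 in the male pupa, against 1.17 in L5, whereas that of the lower genes was 1.27 in the female pupa and 1.23 in the male pupa, against 6.44 in L5. In the libraries that had no part in the choice, the 921 genes took 35.3% of the reads in L1, 21.3% in L3, 14.7% in L4 and 7.84% in L2, while the egg had 14.8%, the female adult 7.72% and the male adult 6.73%. Among these 7 libraries their share was highest in L1 and lowest in the male adult. All 7 lay between the pupae and L5, which the choice of the genes favours.

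The leading genes of each library were compared next, each list being chosen by the reads of its own library. The 100 genes with most reads in L5 took 46.6% of its reads, and the same genes took 23.0% in the female pupa and 17.9% in the male pupa. Of these 100 genes, 40 were at least 4-fold lower in both pupae, 18 were below 10 RPKM in both, and 0 were at least 4-fold higher. The 100 leading genes of the female pupa and those of the male pupa had 49 in common, and 41 of the 49 were also among the leading 100 of L5. Within those 49, 2 genes were at least 4-fold higher in both pupae than in L5. The 49 genes that led both pupae were therefore largely genes that also led L5. Of its own leading 100, the female pupa shared 51 with L5 and the male pupa 45. With the egg and the other larvae the female pupa shared 29 to 68, and the male pupa 37 to 51.

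The difference was tested across all 13424 genes with limma, in which the spread was taken from the female and male pupa and from the female and male adult (2 residual degrees of freedom, moderated across genes). L5 was assumed to vary as these stages do, and the spread is one between individuals of different sex. At a Benjamini-Hochberg adjusted p under 0.05, 45 genes rose in pupae (0.335% of the genes tested) and 190 fell (1.42%). All 235 were also at least 4-fold apart in both pupae. The median change was 6.13 for the genes that rose and -6.77 for those that fell, and the smallest change called was 4.00 in size, so the test reached large changes only. It rested on every library: without the female pupa, the male pupa, the female adult or the male adult, 0 genes passed in limma, with 2513 to 2800 genes at an unadjusted p under 0.05 against 3240 with all 5 libraries. With a pseudocount of 0.1 in place of 1, 0 genes passed as well, with 3486 at an unadjusted p under 0.05.

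The 45 genes that rose ranged from 28.8 to 4413 RPKM in the female pupa (median 197.3) and from 24.4 to 10669 RPKM in the male pupa (median 242), against 0 to 107.3 RPKM in L5 (median 0.924). In L5, 24 of the 45 were under 1 RPKM. The 190 genes that fell ranged from 0 to 36.6 RPKM in the female pupa (median 0.0917) and from 0 to 36.1 RPKM in the male pupa (median 0.201), against 22.7 to 27481 RPKM in L5 (median 186). Under 1 RPKM were 149 of the 190 in the female pupa and 146 in the male pupa, whereas 130 reached 100 RPKM in L5. In the libraries of the other larvae, which had no part in the test, the 190 genes had a median of 273 RPKM in L1, 97.2 RPKM in L3 and 71.5 RPKM in L4, while that of L2 was 30.1 RPKM and that of the egg 75.5 RPKM. The 45 genes had a median of 19.9 RPKM in L2, the highest outside the pupae, while L1, L3 and L4 had 4.56, 2.89 and 2.86 RPKM and the egg 7.93 RPKM. In L2, 27 of the 45 genes reached 10 RPKM, so that this larval library shared part of the pupal expression.

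By the smaller of its 2 differences, RR48_04863 had the largest rise among the genes that passed. It had 4413 RPKM in the female pupa and 2702 RPKM in the male pupa, from 87189 and 54155 reads, against 0.364 RPKM in L5, from 5 reads. The limma change was 11.31 (standard error 0.54, adjusted p = 0.0300). In the other stages the gene was nearly silent: it was listed at 0 in the egg, L1 and L3, had 0.109 RPKM in L4 and 0.444 RPKM in L2, and the female adult had 1.45 RPKM and the male adult 0.926 RPKM. Its expression was thus high in the 2 pupae and in no other library.

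RR48_04865 followed, with 4029 RPKM in the female pupa and 10669 RPKM in the male pupa, against 3.64 RPKM in L5, from 47 reads. The limma change was 10.47 (standard error 0.83, adjusted p = 0.0308). The gene was listed at 0 in the egg, L1 and L3, with 0.0579 RPKM (1 read) in L4 and 2.88 RPKM in L2. In the female adult it had 0.935 RPKM and in the male adult 2.74 RPKM, so that the adults, like the larvae, lay far below the pupae. In the order of the pupae the 2 genes differed, since RR48_04863 was higher in the female and RR48_04865 in the male.

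By the same measure, RR48_09634 had the largest fall among the genes that passed. It had 0 reads in the female pupa and 1.65 RPKM in the male pupa, from 28 reads, against 11960 RPKM in L5, from 139064 reads. The limma change was -12.84 (standard error 1.48, adjusted p = 0.0477). For this gene 3 reads in the female pupa would be 0.179 RPKM, so that it was at least 66716-fold lower there than in L5, with counting error alone considered. It was expressed in every larva, with 4870 RPKM in L1, 3683 RPKM in L4, 2446 RPKM in L2 and 1113 RPKM in L3, and stood at 124.8 RPKM in the egg. The adults stayed near the pupal level, at 0.223 RPKM in the female and 8.67 RPKM in the male.

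RR48_01519 had 0.0942 RPKM in the female pupa (2 reads) and 0.511 RPKM in the male pupa (11 reads), against 6381 RPKM in L5 (94112 reads). The limma change was -12.28 (standard error 1.03, adjusted p = 0.0308). This gene was concentrated in the final instar: of the earlier larvae L1 was highest with 565.5 RPKM, followed by L4 with 123.7, L3 with 72.2 and L2 with 64.7 RPKM, and the egg had 18.3 RPKM. It was listed at 0 in the female adult and had 3.20 RPKM in the male adult. With L4 in place of L5 its change was -6.60 and it did not pass (adjusted p = 0.102, limma), whereas over the 13 alternatives its adjusted p ran from 0.0159 to 0.170. Of these 13 alternatives, RR48_04863 and RR48_04865 passed in 7 each, RR48_01519 in 6 and RR48_09634 in 5. RR48_04863, RR48_04865 and RR48_09634 had their lowest adjusted p (2.67e-06, 0.000141 and 0.000608, limma) with larvae in place of L5. That setting used all 10 libraries and compared the pupae with all larvae, not with L5. None of the 4 genes changed direction in any alternative.

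**Figure D3:**
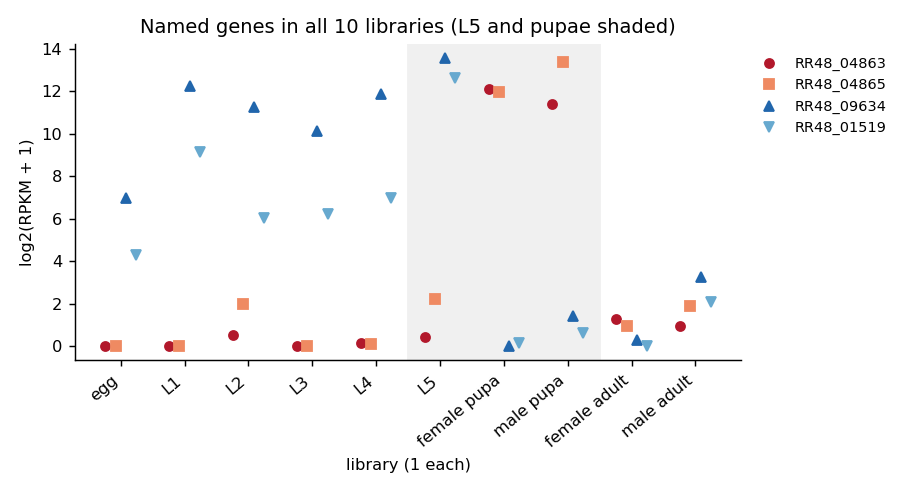
Level in log2(RPKM + 1) (y axis) of the 4 named genes in each of the 10 libraries (x axis), with L5 and the pupae shaded. RR48_04863 and RR48_04865 reach at least 11.40 in both pupae and at most 2.21 in all other libraries, while RR48_09634 and RR48_01519 reach at least 4.27 in the egg and larvae and at most 3.27 in pupae and adults.

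Genes with neighbouring locus tags were compared, without a test. Of the genes carrying the next tag after a gene that was 4-fold lower in both pupae, 252 of 758 (33.2%) were also 4-fold lower, against 6.86% of all genes tested. After a gene that was 4-fold higher, 272 of 1139 (23.9%) were also higher, against 9.56%. Most neighbours therefore did not move alike, though more did than the share over all genes. Some consecutive tags in the table had identical RPKM in L5 and in both pupae, and such tags move alike. How far this enters the counts was not tested. Runs of at least 3 consecutive tags held 214 of the lower genes, in 58 runs, and 165 of the higher genes, in 50 runs. The longest run of lower genes was 8 tags long and the longest run of higher genes was 5. How the authors counted reads that match more than one gene is not given in the sources used here, and whether the order of tags follows the genome was not tested.

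The longest run of lower genes included RR48_09634. Its 8 genes ranged from 0 to 0.165 RPKM in the female pupa and from 0.223 to 2.48 RPKM in the male pupa, against 249.7 to 11960 RPKM in L5. All 8 were expressed in the other larvae too, from 4870 to 63498 RPKM in L1, 140.2 to 3683 RPKM in L4, 415 to 1559 RPKM in L3 and 15.2 to 2446 RPKM in L2. The egg had 13.3 to 4660 RPKM, and the adults had at most 0.559 RPKM in the female and 1.62 to 34.0 RPKM in the male. The run was thus expressed in the egg and all larvae, with its highest medians in L1 and L5, and 7 of its genes were among the 20 largest losses.

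Both named genes that rose lay in one stretch of 15 tag numbers, chosen because it held 6 of the 20 largest gains, so that its counts are a description. Of its 14 genes tested, 10 were at least 4-fold higher in both pupae, 0 were 4-fold lower, and 5 passed the limma test, against 9.56%, 6.86% and 0.335% of all genes tested. The 10 genes ranged from 17.6 to 4413 RPKM in the female pupa (median 324.6) and from 16.3 to 10669 RPKM in the male pupa (median 1071), against 0.0701 to 3.64 RPKM in L5. The highest value over the 10 genes, taken in each library separately, was 2.44 RPKM in L4, 2.04 in L3 and 2.96 in L1, but 2427 RPKM in L2. In the adults the 10 genes had at most 27.7 RPKM in the female and 10.9 RPKM in the male. The stretch was thus active in both pupae, with a part of it also active in L2.

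The levels of the same genes in the libraries that took no part in choosing them were examined next. A gene was placed on the pupal side of a library where its level lay beyond the midpoint between L5 and the nearer pupa. Of the 921 lower genes, the female adult had 83.4% on the pupal side and the male adult 81.8%, and 681 were so in both. Among the larvae the share was 47.6% for L2 but 22.8% for L1, 21.7% for L4 and 19.0% for L3, and the egg had 35.2%. Most of the genes that were lower in pupae were thus also near the pupal level in adults, and 277 were so in both adults while lying on the larval side in all of L1 to L4. Returning to the larval side in both adults were 81 of the 921 (8.79%).

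The higher genes had no such common course. The female adult had 49.5% of the 1284 genes on the pupal side and the male adult 60.7%, with 550 genes so in both adults and 419 in neither. Among the larvae the share was 57.9% for L2, 41.0% for L3, 40.8% for L1 and 37.9% for L4, and the egg had 52.0%. Without centring, all of L1 to L4 were on the pupal side in 180 genes, so that each was low in L5 relative to every other larva. On the larval side in all of L1 to L4 were 250 genes, and in another 223 L2 alone stood with the pupae. A total of 115 genes were on the pupal side in none of the 7 other libraries. With all libraries centred on the median gene the sets themselves changed, to 545 higher and 1344 lower genes. Of these higher genes the share on the pupal side was 22.0% in L4 and 22.6% in L3 but 57.2% in L2, and of these lower genes the female adult had 78.5% there and the male adult 76.8%.

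**Figure D4:**
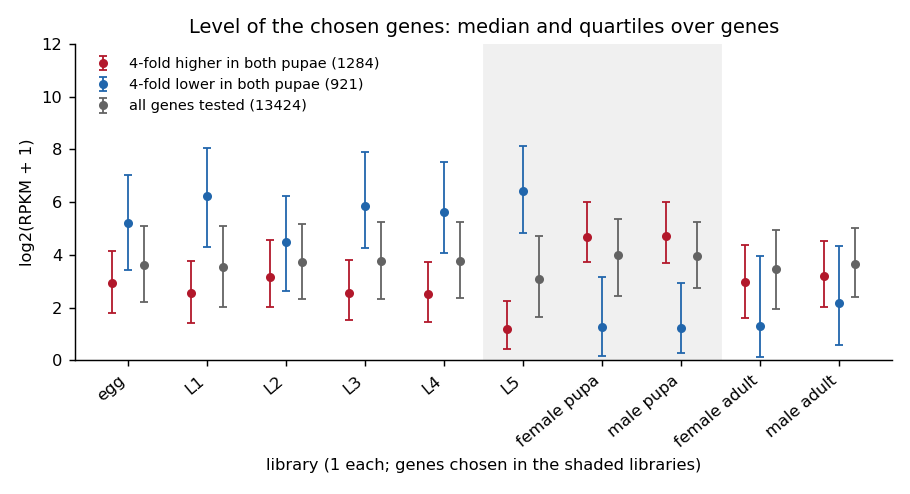
Median and quartiles over genes of log2(RPKM + 1) (y axis) in each library (x axis), for the 1284 genes at least 4-fold higher (red) and the 921 at least 4-fold lower (blue) in both pupae, and all 13424 genes tested (grey). The genes were chosen by the shaded libraries. The lower genes have medians of 1.29 in the female and 2.16 in the male adult, while the higher genes have medians of 2.98 and 3.21 there.

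**Figure D5:**
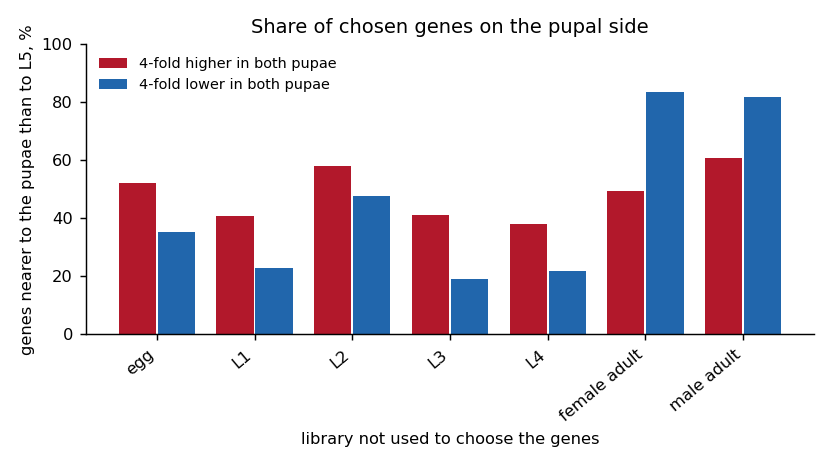
Share of the chosen genes (y axis, in %) whose level was nearer to the pupae than to L5, in each of the 7 libraries not used to choose them (x axis), for genes higher (red) and lower (blue) in both pupae. The lower genes exceed 80% in both adults, and L2 has the largest larval share in both sets.

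Genes near 0 on one side were listed by level, since a fold on RPKM + 1 is limited there. Switched on, with at least 5 RPKM in both pupae and under 0.5 RPKM in L5, were 297 genes, 1.94% of the 15285 in the table. Switched off, with under 0.5 RPKM in both pupae and at least 5 RPKM in L5, were 247 genes (1.62%). Which list was longer depended on the scaling and the limits, with 216 on and 270 off after 75th percentile scaling, and 351 on and 130 off with limits of 1 and 0.1 RPKM. The genes switched on had a median of 14.6 RPKM in the female pupa and 14.1 RPKM in the male pupa against 0.225 RPKM in L5, and 16 of them reached 100 RPKM in both pupae. The genes switched off had a median of 0.0310 RPKM in the female pupa and 0.0962 RPKM in the male pupa against 41.9 RPKM in L5, where 72 reached 100 RPKM. These levels follow from the limits that chose the genes. Of the 247 genes 49 had 0 reads in both pupae, while 45 of the 297 had 0 reads in L5. A count of 0 allows up to 3 reads.

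In other stages the 2 lists behaved differently. Of the 247 genes switched off, 136 were under 0.5 RPKM in both adults as well and 4 were at 5 RPKM or more in both, whereas 201 were at 5 RPKM or more in L1, 188 in L3 and 189 in L4. L2 held 133 of them at that level. Of the 297 genes switched on, the female adult had 88 at 5 RPKM or more and the male adult 111, with 70 so in both. In the larvae 113 of the 297 reached 5 RPKM in L2, 52 in L1, 29 in L4 and 27 in L3. L2 was thus the larval library with most of the genes switched on and fewest of the genes switched off.

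The pupae, which differ in sex and are separate individuals, also differed from each other. At least 4-fold from L5 in 1 pupa but not in the same direction in the other were 2793 genes. Higher in the male pupa alone were 1441 and higher in the female pupa alone 854, and lower in the male pupa alone were 271 and lower in the female pupa alone 254, with genes apart in opposite directions counted in 2 of these lists. The other pupa lay within 2-fold of L5, and so far from the 4-fold limit, for 814 of the 1441 and for 229 of the 854. The median difference of the female from the male pupa was -2.37 for the 1441 and 1.07 for the 854. The gap between the pupae was thus typically smaller for the 854 than for the 1441. The 1441 genes divided in the adults as well: 606 (42.1%) had at least 2-fold more in the male adult and 99 (6.87%) had at least 2-fold more in the female adult, against 19.0% and 10.9% of all genes tested. The 854 genes divided less. Of them 12.5% had at least 2-fold more in the male adult and 13.0% in the female adult, against the same 19.0% and 10.9%. Both lists of lower genes divided too. Of the 271 lower in the male pupa alone, 35.4% had at least 2-fold more in the female adult, and 20.7% had the reverse. Of the 254 lower in the female pupa alone, 42.1% had at least 2-fold more in the male adult, and 11.8% had the reverse. Among genes that moved 4-fold in both pupae, the pupae lay within 2-fold of each other for 884 of the 1284 higher genes (68.8%) and for 664 of the 921 lower genes (72.1%).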

How the data were processed

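Poly-A RNA of whole bodies was sequenced by the authors on an Illumina HiSeq instrument with paired ends, 1 library per sample. Reads were assembled de novo and mapped to the authors' genome assembly, and the submitters' processing notes name TopHat 1.0.12 and 1.4.1. The counting tool is not given in the sources used here. The authors deposited 1 table of RPKM (reads per gene, scaled by gene length and by the reads of the library), and 0 of its columns were left without a library.

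The read number behind each RPKM was recovered as follows: a gene's values, divided by the commonest ratio of each library to the egg, are whole multiples of 1 unit, to within 0.001 for all 15285 genes. Genes seen in few libraries may have reads too small by a whole factor. Reads describe depth and entered no test. A count of 0 allows 3 reads, for counting error only.

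Levels are log2(RPKM + 1), which understates changes of low genes. Pupae and L5 were compared with limma 3.58.1 (R 4.3.3; eBayes, intensity trend) on the genes that reached a mean of 1 RPKM over L5 and pupae, after a test on simulated data, with Benjamini-Hochberg adjustment and a threshold of 0.05. The fit held L5, both pupae and both adults, and the p-values measure spread between single individuals. Named genes are the 2 in each direction with the largest smaller difference among those that passed. Lists by product name were not run, because no tag had a product. Alternatives were another pseudocount, scaling, filters, thresholds, L4 in place of L5, sex as a term, other sources of spread and libraries left out. Centring on the median gene, 75th percentile scaling of the genes switched on or off, and all alternatives for genes apart in 1 pupa were added after seeing the data. The comparison and its genes were chosen with earlier results of these data known. Python 3.11.15, numpy 2.4.6, pandas 2.3.3 and matplotlib 3.10.9 were used.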

Additional observations from a re-analysis of the deposited data

Results flagged for a closer look

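A total of 27 genes were at least 4-fold higher than L5 in one pupa and at least 4-fold lower in the other. The 2 pupae differ in sex and are also separate individuals. The difference between the pupae was not tested, with 1 library of each sex. Of the 27, 24 were higher in the male pupa, with a median of 1.11 RPKM in the female pupa and 501.1 RPKM in the male pupa against 15.1 RPKM in L5. The median of these 24 was 1541 RPKM in L2, 16.1 in L4, 28.0 in L3 and 27.4 in L1. None of these larvae had a part in the choice. The 24 genes took 6.63% of the reads on genes in L2 and 0.205% to 0.464% in L1, L3 and L4. In the libraries that chose them, they took 4.50% in the male pupa, 0.00538% in the female pupa and 0.0572% in L5. In the adults 17 of the 24 (70.8%) were at least 2-fold higher in the male, against 19.0% of all genes tested. At least 2-fold higher in the female adult was 1 of the 24 (4.17%), against 10.9%.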

How the results depend on the processing

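The 235 genes that passed limma became 375 with a filter at a mean RPKM of 5, with all 235 among them, 400 after centring on the median gene, 50 with L4 in place of L5 (47 of the 235) and 1233 with all 10 libraries and larvae in place of L5 (154 of the 235, and 656 higher against 577 lower). In limma, 0 passed with a pseudocount of 0.1, with the spread of the 2 pupae alone (2508 at an unadjusted p under 0.05) and without any one of the 4 pupal and adult libraries (0 to 0). With sex as a term 268 passed, 205 of them shared. The 2205 genes 4-fold apart became 5484 at 2-fold, 1075 at 8-fold and 3313 to 3917 with 1 pupa left out, and a share of 58.2% higher became 44.1% with 75th percentile scaling, 28.9% after centring, 68.6% with a pseudocount of 0.1 and 36.3% with L4. The 2793 genes apart in 1 pupa became 4673 at 2-fold and 1495 at 8-fold. The 544 genes switched on or off became 125 at 10 and 0.1 RPKM (40 on), 343 with L4 (107 on) and 807 to 1175 with 1 pupa left out. The cause of these changes was not tested. Depth limits low genes: 3 reads were 0.139 to 0.258 RPKM for the named genes in L5 and pupae.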

Other observations

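The level of a gene in the 7 libraries other than L5 and the pupae went with the direction of its change. With the 13424 genes in 4 groups of 3356 by that level, 478 genes (14.2%) were at least 4-fold higher in both pupae and 111 (3.31%) were lower in the lowest group. In the highest group 137 (4.08%) were higher and 388 (11.6%) lower, with the groups between them in order. Among the 9825 genes at 1 RPKM or more in all 7 libraries, 8.50% were higher and 4.03% lower, and among the 3200 found at that level in 2 to 6 of them, 12.8% were higher and 15.7% lower. Among the 399 found at that level in at most 1 of them, 9.77% were higher and 6.02% lower. The filter kept genes by their mean RPKM over L5 and both pupae, so a gene low elsewhere could enter through the pupae. A gene that is low in L5 also has little or no room to fall 4-fold on RPKM + 1. How far these limits shape the shares was not tested. All of these shares are descriptions, with no test.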
